A study of Mus musculus with 22 samples.

Results

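The genes described are 8 that take part in MHC class II antigen presentation. They are H2-Aa, H2-Ab1 and H2-Eb1 (classical class II chains), Cd74 (the invariant chain), H2-DMa and H2-DMb1 (the H2-M peptide exchange factor), Ciita (the class II transactivator) and Ctss (cathepsin S). They were picked by symbol from the liver count table, without a rule on their values, though earlier results of these data were known. All 8 had a row among its 15448 genes, and all 8 were among the 14785 genes that passed the filter on low counts. Poly(A) RNA from frozen whole livers of male, wild-type CD2F1 mice was sequenced in 3 groups. C26-TDCA mice (n = 8) carried the transplanted colon carcinoma C26 and were injected intraperitoneally every day with 10 mg/kg taurodeoxycholic acid (TDCA), a taurine-conjugated secondary bile acid that depends on gut bacteria. C26 mice (n = 8) carried the same tumour without the bile acid. CT mice (n = 6) had a sham injection, are labelled as vehicle, and carried no tumour. C26 is a mouse cell line that causes cachexia, a wasting of muscle and fat. The labels name no bile acid vehicle for C26 mice, so TDCA and its injections cannot be told apart. The sources used here give no ages. Each library is labelled as the liver of a single mouse.

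Class II molecules are pairs of an alpha and a beta chain that show peptides from endosomes to CD4 T cells. In the endoplasmic reticulum the pair is held by the invariant chain, whose last fragment is cut by cathepsin S in antigen-presenting cells and then removed by H2-M, while H2-O restrains H2-M. Transcription of the class II chain, invariant chain and H2-M genes depends on the coactivator CIITA. It is bound by the RFX, CREB and NF-Y factors at the X and Y boxes of the promoters and is itself induced by interferon-gamma. In liver the genes are expressed mainly by Kupffer cells, dendritic cells, B cells and, at lower levels, sinusoidal endothelium, not by resting hepatocytes.

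In GRCm38, with GENCODE M21 annotation, 5 of the 8 genes lie in the MHC on chromosome 17. H2-DMa spans 34119541 to 34139101, H2-DMb1 34153072 to 34160230, H2-Ab1 34257689 to 34269419, H2-Aa 34282744 to 34287823 on the minus strand, and H2-Eb1 34305867 to 34316674. Cd74 lies on chromosome 18 (60803848 to 60812652), Ciita on chromosome 16 (10480059 to 10528418) and Ctss on chromosome 3 (95526786 to 95556403). All are on the plus strand except H2-Aa. Of the exon bases of H2-DMa, 10.4% overlap Brd2 on the other strand, and 3.45% of those of Ciita overlap Dexi. Whether counting used strand is not given in the sources used here. Brd2 averaged 102 ± 9.55, 101 ± 7.9 and 89.2 ± 5.71 CPM (counts-per-million, after TMM scaling) in C26-TDCA, C26 and CT livers (SD, n = 8, 8 and 6), and Dexi 15.1 ± 1.48, 15.3 ± 1.24 and 19.4 ± 2.57. The reference is a C57BL/6 genome, whereas CD2F1 mice have the d haplotype of the MHC from both parent strains. Reads of these polymorphic chains may therefore align in part, which weighs on levels compared between genes and was not tested.

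Counts per library summed to 20521443 to 28264450 in C26-TDCA, 17512071 to 28134658 in C26 and 16511100 to 25260393 in CT. The 20 most abundant genes took 34.8 to 39.2%, 33.1 to 39.9% and 21.6 to 21.9% of them. A list of 9 hepatocyte markers summed to 35269 to 43011 CPM in C26-TDCA, 32371 to 41684 CPM in C26 and 62941 to 72897 CPM in CT livers, so the liver label held while their total was lower with tumour. Their median log2 fold change against CT was -0.13 in C26-TDCA and -0.04 in C26, so the sum does not describe the typical marker. Calls use edgeR's quasi-likelihood test over all 22 libraries with Benjamini-Hochberg adjustment over 14785 genes, at an adjusted p under 0.05, and ± in a fold change is its standard error (SE).

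The classical chains and the invariant chain were lower in livers of both tumour groups than in CT livers, by 2.41-fold to 2.82-fold. Cathepsin S was higher in both tumour groups. H2-DMb1 was lower, whereas H2-DMa and Ciita did not pass the test. In C26 against CT, 1 of the 8 genes was called higher (Ctss) and 5 were called lower (H2-Aa, H2-Ab1, H2-Eb1, Cd74, H2-DMb1). Among all genes tested in that comparison 28.9% were called higher and 29.2% lower, 58.1% in all. In C26-TDCA against CT the same 6 genes were called in the same directions, beside 28.7% of all genes called higher, 28.2% lower and 57% in all. These comparisons share the CT libraries. The median log2 fold change of the 8 genes was -1.12 in C26-TDCA and -1.18 in C26 against CT, where the medians of all genes were 0.01 and -0.00.

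**Figure D1:**
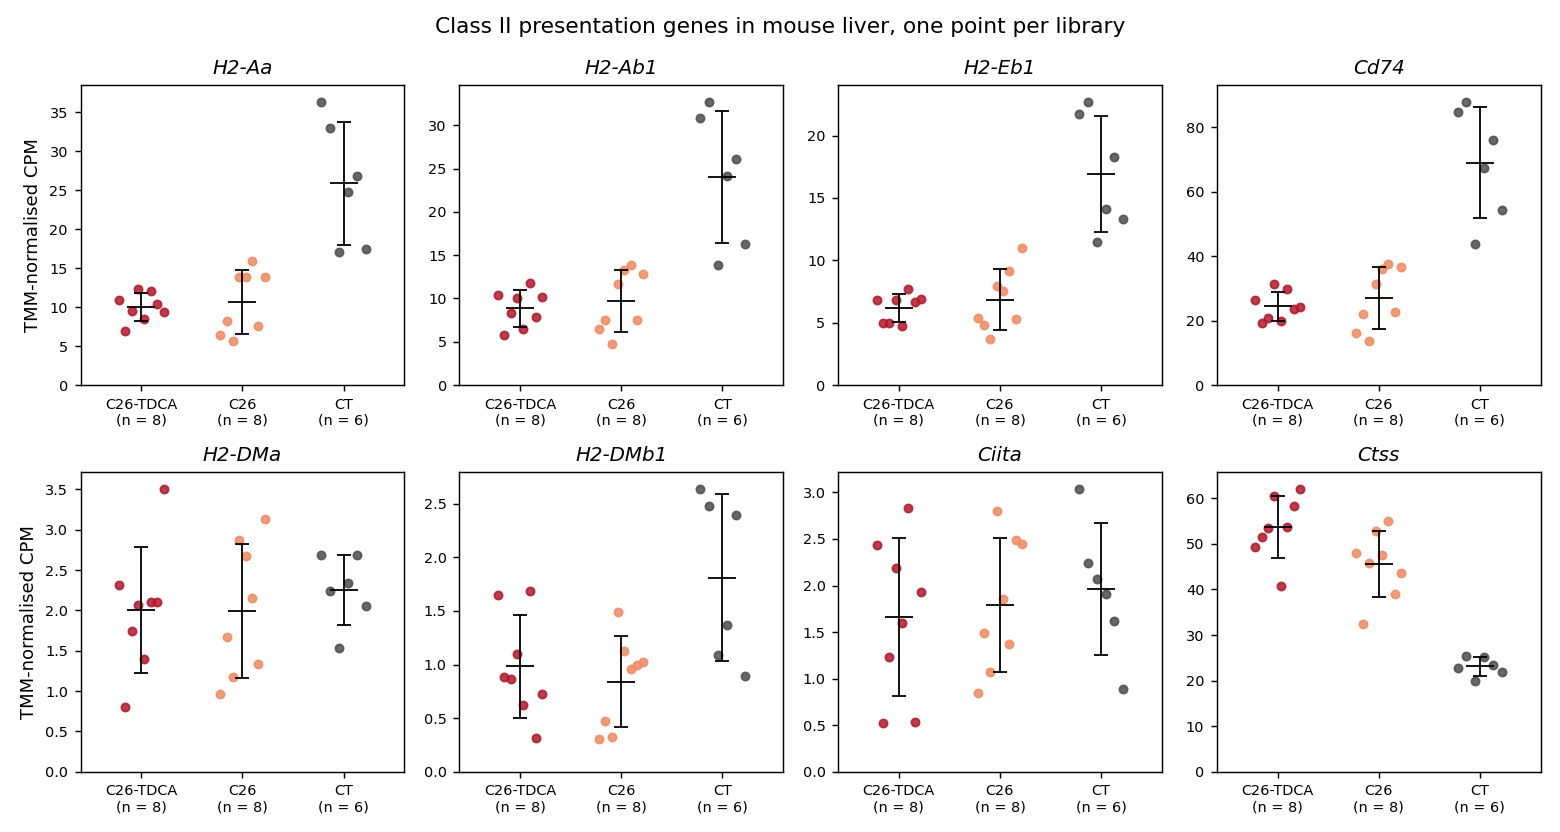
CPM (TMM-normalised, linear axes from 0) of the 8 class II presentation genes in each liver library, with a point per mouse, a bar at the group mean and error bars of 1 SD (n = 8, 8 and 6). H2-Aa, H2-Eb1 and Cd74 of both tumour groups lie below every CT library, Ctss lies above every CT library, and H2-DMa and Ciita overlap throughout.

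Cd74, the most abundant of the class II chain and chaperone genes, ranged from 19.3 through a median of 23.9 to 31.5 CPM in C26-TDCA livers, from 13.6 through 27 to 37.5 CPM in C26 livers and from 43.9 through 71.8 to 87.9 CPM in CT livers. No tumour-bearing liver reached the lowest CT liver. Cd74 fell by 1.50 ± 0.20 on the log2 scale in C26-TDCA (adjusted p = 6.27e-07, edgeR) and by 1.35 ± 0.20 in C26 (adjusted p = 2.71e-06), each against CT. Cd74 was backed by 408 to 813, 292 to 968 and 1037 to 2017 counts per library in C26-TDCA, C26 and CT.

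H2-Aa, which encodes the alpha chain of the I-A molecule, had 6.9, 9.91 and 12.3 CPM as its lowest, median and highest values in C26-TDCA livers, 5.6, 11 and 15.9 CPM in C26 livers and 17, 25.8 and 36.3 CPM in CT livers. The groups with tumour did not overlap CT. It fell by 1.37 ± 0.21 in C26-TDCA (adjusted p = 6.49e-06, edgeR) and by 1.27 ± 0.21 in C26 (adjusted p = 1.78e-05). Within C26 the libraries left a gap, with 5.6, 6.44, 7.6 and 8.24 CPM in replicates 3, 1, 7 and 2 and 13.8, 13.9, 13.9 and 15.9 CPM in replicates 4, 5, 8 and 6. C26-TDCA livers had no such gap.

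H2-Ab1, the beta chain of I-A, ran from 5.77 through 9.23 to 11.8 CPM in C26-TDCA livers, from 4.76 through 9.59 to 13.9 CPM in C26 livers and from 13.9 through 25.1 to 32.7 CPM in CT livers. Of the C26 livers, 7 of 8 lay below all CT livers, and C26 replicate 6 reached the lowest CT liver, replicate 5. The gene fell by 1.44 ± 0.22 in C26-TDCA (adjusted p = 6.33e-06, edgeR) and by 1.30 ± 0.22 in C26 (adjusted p = 2.29e-05) against CT. The same 4 C26 libraries as for H2-Aa were low, with replicates 1, 2, 3 and 7 at 4.76 to 7.51 CPM and replicates 4, 5, 6 and 8 at 11.7 to 13.9 CPM.

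H2-Eb1, the beta chain of I-E, had 4.76, 6.73 and 7.72 CPM as its lowest, median and highest values in C26-TDCA livers, against 3.73, 6.45 and 11 CPM in C26 livers and 11.5, 16.2 and 22.7 CPM in CT livers. The highest C26 liver, replicate 8, stopped just under the lowest CT liver, replicate 5. H2-Eb1 fell by 1.44 ± 0.20 in C26-TDCA (adjusted p = 9.01e-07, edgeR) and by 1.30 ± 0.20 in C26 (adjusted p = 4.18e-06). The alpha chain of I-E is annotated in this reference as the polymorphic pseudogene H2-Ea-ps, since C57BL/6 mice do not express it while mice of the d haplotype do. H2-Ea-ps was counted in every library, at 7.62 ± 2.03 CPM in C26-TDCA, 8.12 ± 2.88 CPM in C26 and 18.7 ± 4.22 CPM in CT livers (SD, n = 8, 8 and 6). It fell by 1.30 ± 0.20 in C26-TDCA (adjusted p = 7.31e-06) and by 1.20 ± 0.20 in C26 (adjusted p = 1.97e-05).

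In C26-TDCA 4 of the 8 genes, H2-Aa, H2-Eb1, Cd74 and H2-Ab1, lay below all CT libraries, beside 16.2% of all genes tested. In C26 3 of the 8, the same set without H2-Ab1, did so, beside 15.3% of all genes. Ctss lay above all CT libraries in both, where 15.4% (C26-TDCA) and 14.2% (C26) of all genes did. In whole liver, fewer cells that express class II and less class II RNA per cell cannot be told apart.

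Part of the promoters of these chains is shown because the genes changed together and because the X and Y boxes are where RFX and NF-Y act. In the RefSeq promoter table (GRCm38.p6), 5 of the 8 genes have an entry, namely H2-Aa, H2-Eb1, H2-DMa, H2-DMb1 and Ctss, and H2-Ab1, Cd74 and Ciita have none there. The 250 bases before each start were searched on both strands for CNNGNAAC (letters of an X box), for ATTGG (a Y box, the core of an NF-Y site) and for CNNGNAAC followed by ATTGG after 20 to 35 bases. The letters were chosen with the results known. The following stretches, written 5′ to 3′ on the strand of the gene, have the matches in capitals. H2-Aa is at chr17:34287858-34287917 on the minus strand, H2-Eb1 at chr17:34305762-34305821 and H2-Ob at chr17:34238802-34238861 on the plus strand.
H2-Aa: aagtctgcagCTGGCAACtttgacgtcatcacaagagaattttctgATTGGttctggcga
H2-Eb1: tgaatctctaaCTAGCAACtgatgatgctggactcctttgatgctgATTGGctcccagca
H2-Ob: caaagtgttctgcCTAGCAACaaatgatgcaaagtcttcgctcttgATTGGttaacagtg

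The 2 boxes are 28 bases apart in H2-Aa, 27 in H2-Eb1 and 25 in H2-Ob, a related chain described below, and the last base shown lies 35, 46 and 44 bases before the RefSeq start. H2-DMb1 has the same arrangement with 28 bases between the boxes, in a window that GENCODE places within a first exon. Neither of the 2 entries of H2-DMa holds the pair, and the entry of Ctss does not. Of related chains also searched, H2-Oa has the pair, whereas H2-DMb2, a neighbouring copy of H2-DMb1, does not. Alone, the X letters occur in 33.3% and the Y letters in 33.8% of 32851 promoters, and the spaced pair occurs in 177 of them (0.539%). Such matches describe letters and are not evidence of binding.

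H2-DMa and H2-DMb1 encode the alpha and beta chains of H2-M, and both were scarce. H2-DMa had 0.806, 2.08 and 3.51 CPM as its lowest, median and highest values in C26-TDCA livers, 0.963, 1.91 and 3.13 CPM in C26 livers and 1.54, 2.29 and 2.69 CPM in CT livers. The groups overlapped over the whole CT range. Its log2 fold change was -0.17 ± 0.27 in C26-TDCA (95% confidence interval -0.73 to 0.38, adjusted p = 0.608, edgeR) and -0.17 ± 0.27 in C26 (-0.73 to 0.39, adjusted p = 0.615), each against CT. These intervals do not reach the changes of H2-Aa or Cd74, although 20 to 83 counts per library limit their precision.

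H2-DMb1 had 0.314, 0.878 and 1.69 CPM as its lowest, median and highest values in C26-TDCA livers, 0.308, 0.983 and 1.49 CPM in C26 livers and 0.892, 1.88 and 2.64 CPM in CT livers. The groups overlapped, with 5 of 8 C26-TDCA livers and 3 of 8 C26 livers below all CT livers. H2-DMb1 fell by 0.86 ± 0.35 in C26-TDCA (adjusted p = 0.0403, edgeR) and by 1.09 ± 0.36 in C26 (adjusted p = 0.0121). The call in C26-TDCA was lost without any of C26-TDCA replicates 2, 3, 5, 7 and 8 or CT replicates 1, 2 and 7, with adjusted p up to 0.103, and also with upper-quartile scaling (adjusted p = 0.054) and with voom (adjusted p = 0.0529). It rests on 7 to 56 counts per library. H2-DMb2, a neighbouring copy of the beta chain gene, was not called, at 1 ± 0.481, 1.21 ± 0.561 and 1.33 ± 0.525 CPM in C26-TDCA, C26 and CT livers. The longest transcripts of the copies are identical at 95.5% of 1058 aligned bases, so the split of reads between them is uncertain.

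Ciita, the coactivator on which class II transcription depends, had 0.524, 1.76 and 2.83 CPM as its lowest, median and highest values in C26-TDCA livers, 0.848, 1.67 and 2.8 CPM in C26 livers and 0.892, 1.99 and 3.04 CPM in CT livers. The groups overlapped almost entirely. Ciita's log2 fold change was -0.23 ± 0.34 in C26-TDCA (95% confidence interval -0.93 to 0.46, adjusted p = 0.576, edgeR) and -0.12 ± 0.34 in C26 (-0.82 to 0.57, adjusted p = 0.781) against CT. Ciita rests on 12 to 77 counts per library.

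Ctss, the protease that trims the invariant chain, moved the other way. It had 40.8, 53.5 and 62.1 CPM as its lowest, median and highest values in C26-TDCA livers, 32.4, 46.6 and 55.1 CPM in C26 livers and 19.9, 23.2 and 25.4 CPM in CT livers. Every tumour-bearing liver exceeded every CT liver. Ctss rose by 1.22 ± 0.11 on the log2 scale in C26-TDCA (2.32-fold, adjusted p = 5.38e-10, edgeR) and by 0.98 ± 0.10 in C26 (1.97-fold, adjusted p = 2e-08) against CT. Its RefSeq promoter holds no such pair of boxes, and the stretch at chr3:95526735-95526783 (GRCm38.p6, plus strand) has GAAANNGAAA, letters of an interferon regulatory factor site, in capitals. Those letters occur in 2.98% of 32851 promoters on either strand.
Ctss: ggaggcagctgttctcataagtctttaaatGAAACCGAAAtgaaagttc

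**Figure D2:**
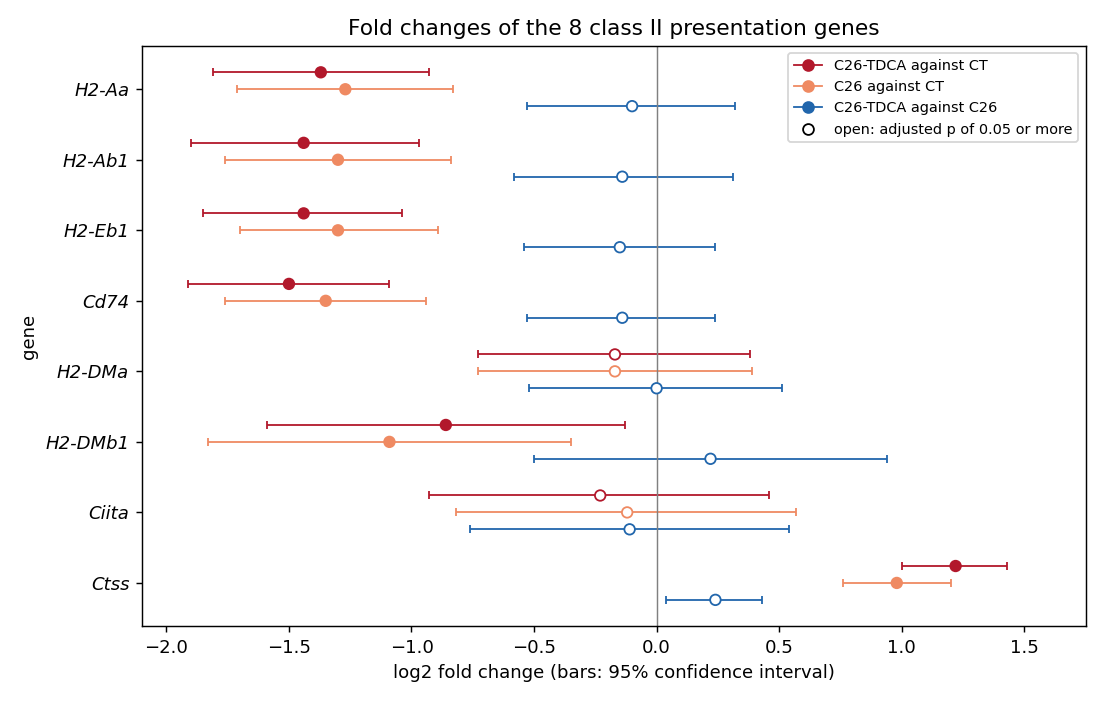
Log2 fold changes of the 8 genes with 95% confidence intervals (edgeR) in C26-TDCA against CT, C26 against CT and C26-TDCA against C26, filled where the adjusted p was under 0.05. The 4 classical chain and invariant chain genes lie between -1.50 and -1.27 in both comparisons with CT, Ctss lies at 1.22 and 0.98, and every gene's point for C26-TDCA against C26 is open.

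None of the 8 genes was called between tumour-bearing mice with and without TDCA. In C26-TDCA against C26, 0 genes were called higher and 0 lower with edgeR, and 0 were called with DESeq2, beside 1.73% of all genes called higher, 0.237% lower and 1.97% in all with edgeR. Ctss alone had an unadjusted p under 0.05, at 53.7 ± 6.86 CPM in C26-TDCA and 45.5 ± 7.3 CPM in C26 livers (SD, n = 8 each). Its log2 fold change was 0.24 ± 0.09 (95% confidence interval 0.04 to 0.43, adjusted p = 0.206, edgeR), and the groups overlapped. For Cd74, at 24.5 ± 4.55 against 27 ± 9.55 CPM, the log2 fold change was -0.14 (-0.53 to 0.24, adjusted p = 0.771). The interval was -0.53 to 0.32 for H2-Aa, -0.58 to 0.31 for H2-Ab1 and -0.54 to 0.24 for H2-Eb1, so differences smaller than these bounds remained possible. For H2-DMa (-0.52 to 0.51), H2-DMb1 (-0.50 to 0.94) and Ciita (-0.76 to 0.54) the intervals were wider. No gene of the 8 separated C26-TDCA from C26 libraries, where 0.0947% of all genes lay above and 0.0541% below all C26 libraries. The count over all genes in this comparison depends on single libraries, as given in the closing section.

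Per kilobase of exon, the order of the genes differed between tumour-bearing and CT livers. The length merges all annotated exons of a gene, from 1.36 kb for Ctss to 9.54 kb for Ciita, and is the same in every group. It can exceed the length of a single transcript, which lowers a gene's level beside other genes. In C26-TDCA livers Ctss had the highest level at 39.5 ± 5.05 RPKM (CPM per kilobase of exon, SD, n = 8), ahead of Cd74 at 14.6 ± 2.71, H2-Ab1 at 3.45 ± 0.822, H2-Eb1 at 3.19 ± 0.579, H2-Aa at 2.63 ± 0.474, H2-DMb1 at 0.584 ± 0.287, H2-DMa at 0.582 ± 0.226 and Ciita at 0.174 ± 0.0892. In C26 livers Ctss reached 33.5 ± 5.38 RPKM and Cd74 16.1 ± 5.69 RPKM. In CT livers the order at the top was reversed, with Cd74 at 41.1 ± 10.3 RPKM and Ctss at 17 ± 1.56 RPKM (SD, n = 6). There H2-Ab1 stood at 9.36 ± 2.97, H2-Eb1 at 8.72 ± 2.39, H2-Aa at 6.81 ± 2.08, H2-DMb1 at 1.08 ± 0.462, H2-DMa at 0.655 ± 0.125 and Ciita at 0.206 ± 0.0744 RPKM. In CT livers H2-Eb1 and H2-Aa differed from H2-Ab1 by less than the SD of H2-Ab1, and H2-DMa from H2-DMb1 by less than the SD of H2-DMb1.

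Ratios of counts within a library do not depend on scaling between libraries, so they show which proportions between the genes differed. They were chosen after the values were seen, and 24 ratios were compared with two-sided exact permutation tests of log2 ratios, with Benjamini-Hochberg adjustment over the 24. The smallest p that 8 against 6 libraries gave was 0.000666. For the classical chains no difference in their proportion to Cd74 was called over all libraries. H2-Aa had 0.409 ± 0.0316 counts per Cd74 count in C26-TDCA livers, 0.393 ± 0.0325 in C26 livers and 0.371 ± 0.0362 in CT livers (SD, n = 8, 8 and 6), and neither comparison with CT was called (exact adjusted p = 0.165 and 0.432). In C26-TDCA against CT the log2 ratio of H2-Aa to Cd74 was 0.14 higher, and it was 0.17 higher without C26-TDCA replicate 2 and 0.18 higher without CT replicate 1 (exact unadjusted p = 0.0268 and 0.0155). H2-Ab1 had 0.36 ± 0.0457, 0.359 ± 0.0208 and 0.342 ± 0.0288, and H2-Eb1 had 0.255 ± 0.0231, 0.258 ± 0.0417 and 0.245 ± 0.0195 counts per Cd74 count in the same order of groups. For H2-Ab1 and H2-Eb1 the 4 adjusted values against CT lay between 0.413 and 0.679 by the exact permutation test.

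H2-DMa did not keep its proportion to Cd74. It had 0.0817 ± 0.0297 counts per Cd74 count in C26-TDCA livers and 0.0736 ± 0.0136 in C26 livers, against 0.0333 ± 0.00429 in CT livers, with no overlap. The log2 ratio was 1.23 higher in C26-TDCA and 1.13 higher in C26 than in CT (exact permutation test, adjusted p = 0.00266 each). Whether reads of the overlapping genes Brd2 and Dexi add to the counts of H2-DMa and Ciita was not tested. Ciita had 0.0656 ± 0.0276 and 0.0691 ± 0.0235 counts per Cd74 count in C26-TDCA and C26 livers, against 0.0291 ± 0.011 in CT livers. Its log2 ratio was 1.10 higher in C26-TDCA (exact adjusted p = 0.046) and 1.26 higher in C26 (exact adjusted p = 0.00457). H2-DMb1 per Cd74 was not called, at 0.55 in C26-TDCA (exact adjusted p = 0.243) and 0.22 in C26 (exact adjusted p = 0.534). In C26-TDCA it was 0.75 without C26-TDCA replicate 7 (exact unadjusted p = 0.00583). Cd74 is the denominator of all of these, so they are not independent of each other.

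Ctss had 2.24 ± 0.361 counts per Cd74 count in C26-TDCA livers and 1.89 ± 0.801 in C26 livers, against 0.349 ± 0.0714 in CT livers, a log2 ratio 2.69 and 2.37 higher (exact permutation test, adjusted p = 0.00266 each). Against Ptprc, which encodes the pan-leukocyte antigen CD45, Cd74 went the other way. There were 1.5 ± 0.18 Cd74 counts per Ptprc count in C26-TDCA livers and 2.26 ± 1.02 in C26 livers, against 8.1 ± 1.41 in CT livers. The log2 ratio fell by 2.43 in C26-TDCA and by 1.95 in C26 (exact permutation test, adjusted p = 0.00266 each), without overlap. Between C26-TDCA and C26 the difference of -0.47 was not called (exact adjusted p = 0.176), and it was -0.59 without C26 replicate 1 and -0.60 without C26 replicate 3 (exact unadjusted p = 0.0264 and 0.0205). Every ratio called against CT kept an unadjusted p under 0.05 when each library was left out in turn.

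**Figure D3:**
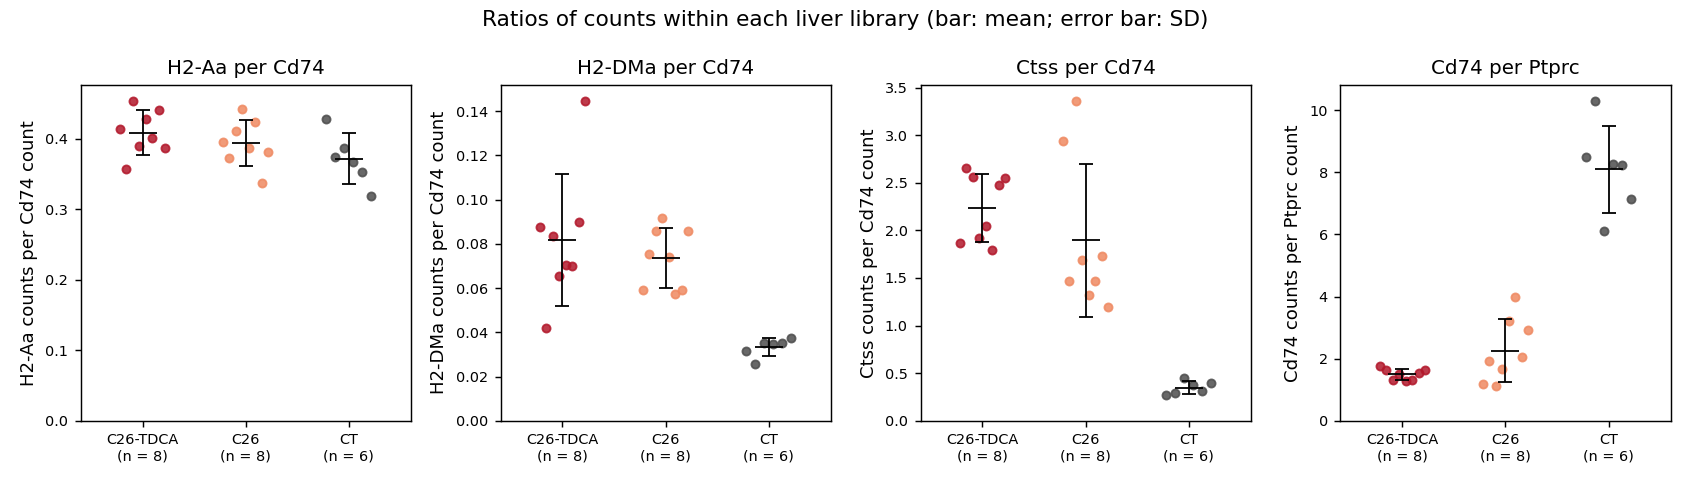
Counts of a gene per count of another within each liver library (linear axes from 0), a point per mouse with the group mean and 1 SD. H2-Aa per Cd74 overlaps in the 3 groups (means of 0.409, 0.393 and 0.371), H2-DMa and Ctss per Cd74 are higher with tumour, and Cd74 per Ptprc is at 1.5 and 2.26 with tumour against 8.1 in CT.

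Across mice the classical chains and Cd74 varied together also within groups. With each group's mean removed from log2 CPM, the correlation with the mean of H2-Aa, H2-Ab1, H2-Eb1 and Cd74 (each left out of its own mean) was 0.97 for H2-Aa, H2-Ab1 and Cd74 and 0.93 for H2-Eb1 over 22 libraries. It was 0.79 for H2-DMa, 0.75 for H2-DMb1, 0.55 for Ciita and 0.48 for Ctss. Among 12899 other genes the nearest was H2-Ea-ps (0.90). It was followed by Gnai2, a G protein subunit, and Arpc1b, an actin-nucleating Arp2/3 subunit (0.82 each), the complement receptor gene C3ar1 and thymosin beta 4 gene Tmsb4x (0.78 each), Cdc42ep2, the phosphatase gene Ptpn6 and Actb (0.76 each), Anxa5 (0.75) and the class Ib gene H2-T22 (0.74). Within C26-TDCA alone the correlation was 0.14 for Actb, against 0.91 within C26 and 0.85 within CT, and it was 0.47 for Anxa5 and 0.50 for Cdc42ep2. These values are descriptions, and the libraries behind them share depth and cell makeup. Unlike the class II chains, Gnai2 rose by 0.65 ± 0.06, Arpc1b by 0.81 ± 0.09, Tmsb4x by 0.63 ± 0.10 and Actb by 0.55 ± 0.07 in C26-TDCA against CT (adjusted p between 1.96e-09 and 1.24e-05, edgeR).

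Of the other class II chains, 1 was clearly lower in both tumour groups, H2-Ea-ps. Of 6 listed, H2-Oa, H2-Eb2 and the symbol H2-Ea had no row, and 3 were tested. In C26-TDCA 2 of 3 were called lower, H2-Ea-ps and H2-Ob, and in C26 1 of 3, H2-Ea-ps, while none was called higher. Beside this and the later lists, 28.7% of all genes were called higher and 28.2% lower in C26-TDCA against CT. For C26 against CT the shares were 28.9% and 29.2%. H2-Ob, the beta chain of H2-O, is typical of B cells and had 0.312 ± 0.13 CPM in C26-TDCA, 0.361 ± 0.308 CPM in C26 and 0.693 ± 0.268 CPM in CT livers (SD, n = 8, 8 and 6). Its change was -1.13 in C26-TDCA, a call that was lost without C26-TDCA replicate 2 or 8 or CT replicate 1 or 6 (adjusted p up to 0.093, edgeR). In C26 it was -0.88 (adjusted p = 0.0809) and was called without C26 replicate 4 (-1.36, adjusted p = 0.00575) and with voom (-1.14, adjusted p = 0.0319).

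Factors of class II transcription split in direction. The 11 listed hold the RFX, NF-Y and CREB genes. They also hold Spi1, Irf4, Irf8 and Prdm1, which are not factors of the X and Y boxes. Of the 11, 6 rose, 3 fell and 2 were not called in C26-TDCA against CT. In C26 against CT 5 rose, 3 fell and 3 were not called. The medians of the 11 were 0.28 and 0.36. Spi1, Irf4 and Irf8 are among the 6 that rose in C26-TDCA, and Spi1 and Irf8 among the 5 in C26. Within the RFX complex, Rfxap fell by 0.32 ± 0.08 in C26-TDCA (adjusted p = 0.00116, edgeR) and by 0.29 ± 0.08 in C26 (adjusted p = 0.00258), and Rfx5 fell by 0.35 ± 0.13 (adjusted p = 0.0225) and by 0.40 ± 0.13 (adjusted p = 0.0114). On the libraries whose replicate numbers occur in both groups, neither Rfxap (-0.21, adjusted p = 0.0678) nor Rfx5 (-0.33, adjusted p = 0.0808) was called in C26. Rfxank rose by 0.29 ± 0.12 in C26-TDCA (adjusted p = 0.0472) and by 0.40 ± 0.12 in C26 (adjusted p = 0.00859), but was not called in either once a trend with transcript length and GC content was removed (0.15, adjusted p = 0.297, and 0.18, adjusted p = 0.208), nor in C26-TDCA with the 2 groups fitted alone (adjusted p = 0.0506). In C26-TDCA the Rfx5 call was lost without CT replicate 1 or 5 (adjusted p up to 0.076), and that of Rfxank without any of C26-TDCA replicates 2, 4, 6, 7 and 8 or CT replicates 5, 7 and 8 (up to 0.154).

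The NF-Y subunits split in direction as well. Nfya rose by 0.50 ± 0.08 in C26-TDCA (adjusted p = 9.58e-06, edgeR) and by 0.37 ± 0.08 in C26 (adjusted p = 0.000371). Nfyc fell by 0.25 ± 0.06 in C26-TDCA (adjusted p = 0.00203) and by 0.19 ± 0.06 in C26 (adjusted p = 0.0122), where the call was lost with upper-quartile scaling (-0.12, adjusted p = 0.101) and with the 2 groups fitted alone (-0.17, adjusted p = 0.0525). Nfyb rose by 0.28 ± 0.11 in C26-TDCA (adjusted p = 0.0378) and by 0.36 ± 0.12 in C26 (adjusted p = 0.00911). In C26-TDCA the Nfyb call was lost without any of C26-TDCA replicates 1, 5, 6 and 7 or CT replicates 1, 5, 7 and 8 (adjusted p up to 0.0925) and once the length and GC trend was removed (0.23, adjusted p = 0.108). Myeloid factors rose by more. Spi1, which encodes PU.1, was at 7.83 ± 0.534 CPM in C26-TDCA and 7.84 ± 1.65 CPM in C26 livers, against 3.61 ± 0.675 CPM in CT livers. Irf8, needed for dendritic cell development, was at 9.61 ± 1.33 and 9.2 ± 1.61 CPM, against 4.67 ± 0.609 CPM. Spi1 rose by 1.11 ± 0.13 in each tumour group, and Irf8 by 1.04 ± 0.12 in C26-TDCA and 0.98 ± 0.12 in C26 (adjusted p between 1.02e-07 and 2.59e-07, edgeR).

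Interferon-gamma, the main inducer of Ciita, had no row in the table, and its receptor, signalling and target genes moved in different directions. Of 8 receptor and signalling genes tested, 5 rose and 2 were not called in each tumour group. Ifngr1 rose by 0.56 ± 0.07 in C26-TDCA and by 0.52 ± 0.07 in C26 (adjusted p = 2.36e-07 and 7.96e-07, edgeR). Ifngr2 was not called, at 21.7 ± 3.2, 22 ± 4.41 and 18.2 ± 2.65 CPM in C26-TDCA, C26 and CT livers. That changed without C26 replicate 2 or CT replicate 2 or 6 in C26 (adjusted p up to 0.0437) and without C26-TDCA replicate 2 or CT replicate 2 in C26-TDCA (up to 0.0494).

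Irf1, a transcription factor that acts on Ciita, was not called, at 32.4 ± 3.64 CPM in C26-TDCA, 32.5 ± 2.64 CPM in C26 and 31.9 ± 6.95 CPM in CT livers. The Socs genes of this list, feedback inhibitors of cytokine signalling, were far higher with tumour, and which signal raised them was not tested. Socs3 reached 236 ± 29 CPM in C26-TDCA and 248 ± 24.7 CPM in C26 livers, against 8.2 ± 3.32 CPM in CT livers, and Socs1 11.5 ± 2.8 and 13.9 ± 3.25 CPM, against 0.431 ± 0.529 CPM. Socs3 rose by 4.84 ± 0.19 in C26-TDCA and by 4.92 ± 0.19 in C26 (adjusted p = 1.62e-16 and 1.19e-16, edgeR). Socs1 rose by 4.56 ± 0.35 and by 4.84 ± 0.35 (adjusted p = 5.22e-11 and 1.79e-11). With a library left out its change ran from 4.36 to 5.58 and from 4.65 to 5.87, so its size is uncertain.

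Of 15 interferon-gamma-induced genes tested, 8 fell, none rose and 7 were not called in C26-TDCA, and 7 fell, 1 rose and 7 were not called in C26. The median was -0.71 in C26-TDCA and -0.50 in C26. The guanylate-binding protein gene Gbp4 was at 3.78 ± 0.917 CPM in C26-TDCA and 3.72 ± 1.08 CPM in C26 livers, against 9.69 ± 1.26 CPM in CT livers. Igtp, an immunity-related GTPase gene, was at 23.3 ± 4.71 and 25 ± 8.26 CPM, against 59.3 ± 11.5 CPM. Igtp fell by 1.35 ± 0.17 and by 1.25 ± 0.17 (adjusted p = 2.46e-07 and 7.49e-07, edgeR), a change close in size to that of the class II chains. Irgm1 was the gene that rose in C26, by 0.29 ± 0.08 (adjusted p = 0.00284). In C26-TDCA it was at 0.16 ± 0.08 (adjusted p = 0.0778) and was called higher with upper-quartile scaling (0.21, adjusted p = 0.023), with voom (0.16, adjusted p = 0.0445), with the 2 groups fitted alone (0.17, adjusted p = 0.0456), and without C26-TDCA replicate 2 or 5 or CT replicate 6 (adjusted p up to 0.0496).

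Genes of endosomal proteases and antigen processing rose with Ctss and not with the chains. Of 10, 9 rose, none fell and 1 was not called in C26-TDCA, and 8 rose, none fell and 2 were not called in C26, with medians of 0.42 and 0.50. Those that rose in both groups include Cst3, which encodes the protease inhibitor cystatin C and not an enzyme. Lgmn, the asparaginyl endopeptidase that starts the cleavage of the invariant chain, was at 141 ± 15.5 CPM in C26-TDCA and 140 ± 27.4 CPM in C26 livers, against 36.9 ± 1.81 CPM in CT livers. Ctsl was at 1429 ± 295 and 1403 ± 184 CPM, against 421 ± 33.8 CPM, although this gene is also expressed by hepatocytes. Ifi30, the thiol reductase of endosomes, rose by 0.44 ± 0.11 in C26-TDCA (adjusted p = 0.00103, edgeR) and by 0.53 ± 0.11 in C26 (adjusted p = 0.000141).

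The ubiquitin ligases that remove class II from the cell surface went in opposite directions. March1, the ligase of antigen-presenting cells, was at 5.44 ± 1.17 CPM in C26-TDCA and 3.91 ± 1.12 CPM in C26 livers, against 1.67 ± 0.547 CPM in CT livers. It rose by 1.69 ± 0.21 and by 1.22 ± 0.21 (adjusted p = 2.38e-07 and 2.63e-05, edgeR). March8, which is widely expressed, was at 68.7 ± 4.99 and 68.6 ± 7.81 CPM, against 135 ± 11.9 CPM, and fell by 0.97 ± 0.07 in each (adjusted p = 5.65e-11 and 5.42e-11). Cd83, which protects class II from March1, was not called. Of 6 costimulator and checkpoint genes, 3 rose, none fell and 3 were not called in each tumour group. Cd86, a ligand of CD28, rose by 1.10 ± 0.17 in C26-TDCA (adjusted p = 6.6e-06) and by 0.84 ± 0.17 in C26 (adjusted p = 0.000212).

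Genes of class I presentation, the pathway for peptides from the cytosol, moved in both directions. Of 10, 4 rose, 3 fell and 3 were not called in C26-TDCA, and 5 rose, 3 fell and 2 were not called in C26. Among all genes tested, 28.7% were called higher and 28.2% lower in C26-TDCA. In C26 the shares were 28.9% and 29.2%, so calls in both directions were common. H2-D1, a class I heavy chain, rose by 0.51 ± 0.07 and by 0.52 ± 0.07 (adjusted p = 7.15e-07 and 5.48e-07, edgeR). B2m, the light chain, fell by 0.39 ± 0.09 and by 0.42 ± 0.09 (adjusted p = 0.000844 and 0.000404), and both B2m calls were lost with the length and GC trend removed (-0.16, adjusted p = 0.0972, and -0.08, adjusted p = 0.39).

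**Figure D4:**
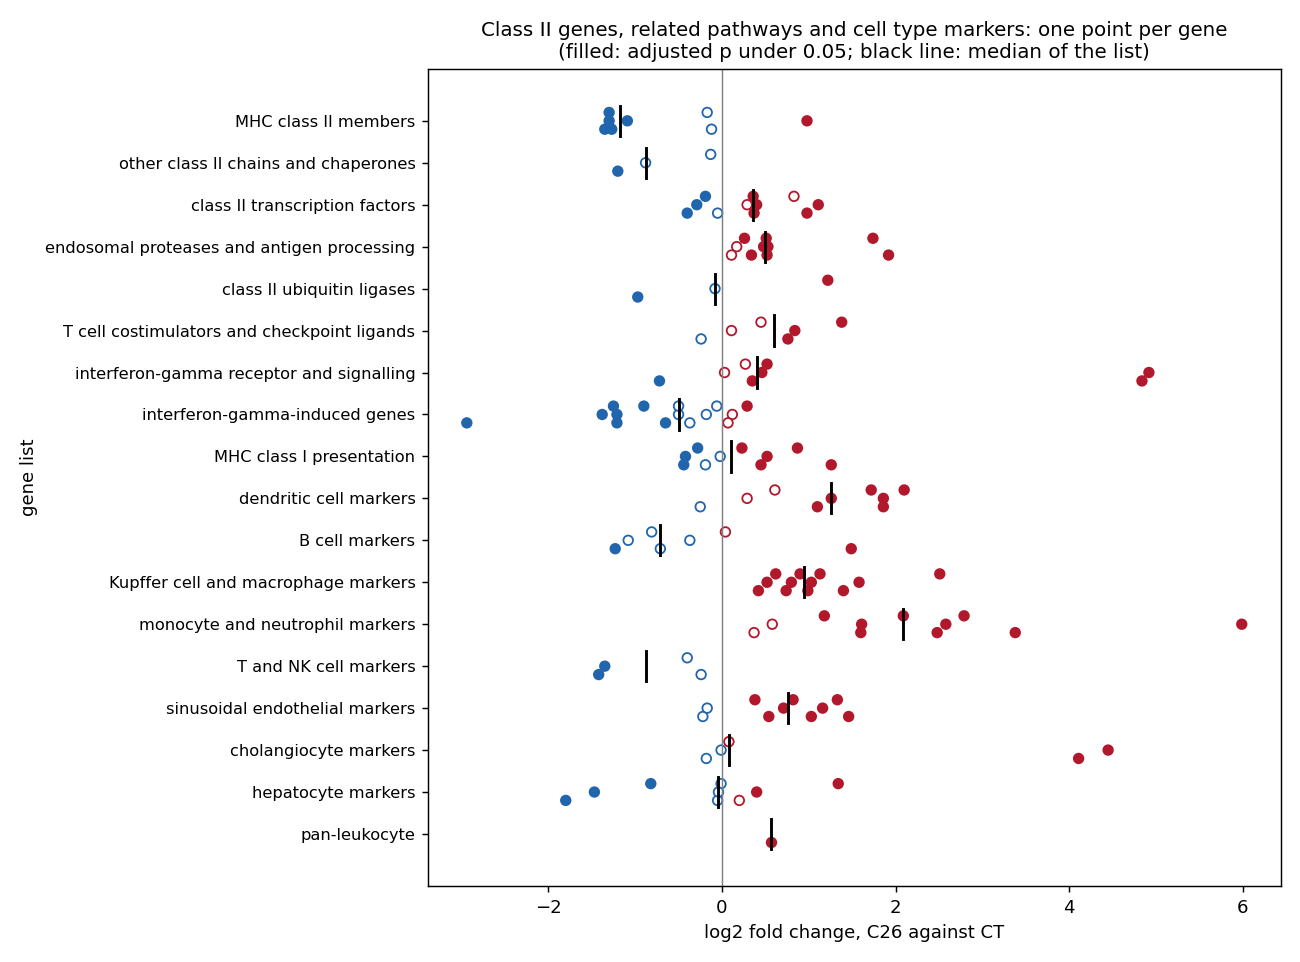
Log2 fold changes in C26 against CT of the 8 class II genes and of related pathway and cell type marker lists, a point per gene, filled where the adjusted p was under 0.05, with a line at the median of each list. The class II genes have a median of -1.18, whereas Kupffer cell markers (12 of 12 rose) and most dendritic cell markers (6 of 9 rose) lie to the right.

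Markers of the cells that carry class II moved in different directions, and their part in the result was not tested. All 12 Kupffer cell and macrophage markers rose in each tumour group, and their summed level was 598 to 787 CPM in C26-TDCA, 493 to 757 CPM in C26 and 302 to 350 CPM in CT livers. Cd5l rose by 1.46 ± 0.10 in C26-TDCA and by 1.40 ± 0.10 in C26 (adjusted p = 1.28e-11 and 2.89e-11, edgeR). Of 9 dendritic cell markers tested, 6 rose and 3 were not called in each tumour group, with summed levels of 16.2 to 23.4, 13.7 to 21.8 and 10.1 to 14.4 CPM in C26-TDCA, C26 and CT. Clec9a, a receptor of cross-presenting dendritic cells that Kupffer cells can also express, rose by 1.38 ± 0.15 in C26-TDCA and by 1.26 ± 0.15 in C26 (adjusted p = 3.92e-08 and 1.71e-07). Xcr1 and Ccr7 had no row in the table.

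B cell markers were near the detection limit. Of 8 listed, 7 had a row, and they summed to 1.69 to 5.7 CPM in C26-TDCA, 3.2 to 5.34 CPM in C26 and 3.71 to 5.76 CPM in CT livers. In C26-TDCA 1 of 7 rose, 2 fell and 4 were not called, and in C26 1 rose, 1 fell and 5 were not called. Ms4a1, which encodes CD20, fell by 1.69 ± 0.49 in C26-TDCA (adjusted p = 0.00443, edgeR) and by 1.23 ± 0.47 in C26 (adjusted p = 0.0283), where the call was lost without C26 replicate 6 or CT replicate 2 (up to 0.146) and with voom (-0.80, adjusted p = 0.199). Blk, a Src family kinase gene, rose by 1.39 ± 0.36 and by 1.49 ± 0.36 (adjusted p = 0.0021 and 0.00111). Ms4a1 and Pax5 had no count in at least 1 C26-TDCA library.

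T and NK cell markers were as scarce, with 5 of 12 in the table and summed levels of 1.12 to 2.96 CPM in C26-TDCA, 1.5 to 2.94 CPM in C26 and 3.41 to 5.38 CPM in CT livers. Of 4 tested, 3 fell in C26-TDCA and 2 fell in C26. Cd4, the T cell coreceptor for class II, fell by 1.59 ± 0.30 in C26-TDCA (adjusted p = 6.54e-05, edgeR) and by 1.35 ± 0.30 in C26 (adjusted p = 0.000378). Of 11 monocyte and neutrophil markers 9 rose and 2 were not called in each tumour group, and the sinusoidal endothelium list had 8 called higher and 2 of 10 not called. Their summed levels were 59.4 to 119 and 514 to 656 CPM in C26-TDCA, 69.1 to 151 and 377 to 658 CPM in C26, and 42 to 54.2 and 289 to 350 CPM in CT livers. Of the cholangiocyte markers 2 of 5 rose and 3 were not called in each tumour group, with sums of 260 to 637, 239 to 763 and 19.3 to 32.6 CPM in C26-TDCA, C26 and CT. The median log2 fold change of these markers was -0.05 in C26-TDCA and 0.08 in C26, and the largest was 4.51 and 4.45. Their sum therefore does not describe the typical marker. Of the hepatocyte markers 3 rose, 3 fell and 3 were not called in C26-TDCA, and 2 rose, 3 fell and 4 were not called in C26. Ptprc rose by 0.97 ± 0.14 in C26-TDCA (adjusted p = 2.51e-06) and by 0.57 ± 0.14 in C26 (adjusted p = 0.00124), so Ptprc was higher in the groups where Cd74 and the class II chains were lower. That holds between groups only. With group means removed, Ptprc ranked 1768 of 12899 genes by correlation with the classical chains and Cd74. Between C26-TDCA and C26 Ptprc was not called (0.40, adjusted p = 0.107), though it was without C26 replicate 4 (0.50, adjusted p = 0.0331).

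Among these lists, 0 genes were called between C26-TDCA and C26 with edgeR except Apob, of the hepatocyte markers, which rose by 0.38 (adjusted p = 0.0319). That Apob call was lost without any of C26 replicates 4, 5, 6 and 8 or C26-TDCA replicates 1, 2, 3, 4 and 6 (adjusted p up to 0.0851), and the gene was at 0.02 once the length and GC trend was removed (adjusted p = 0.945). The other class II chains (median of -0.25), class II factors (-0.00), proteases (-0.04), interferon-gamma signalling (0.02) and interferon-gamma-induced genes (-0.08) stood beside a median of all genes of -0.01 in that comparison. At an unadjusted p under 0.05 the 5 lists had 0 of 3, 1 of 11, 0 of 10, 1 of 8 and 2 of 15 genes. Other lists had more, with 6 of 10 for class I presentation, 4 of 10 for sinusoidal endothelium and 3 of 12 for Kupffer cell markers. The class I list had a median of -0.11. Its gene Tap1 was at -0.39 (adjusted p = 0.0535, edgeR), while Erap1 alone of its genes under that p was higher (0.19, adjusted p = 0.156).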

How the data were processed

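Per the labels, poly(A) RNA of 22 mouse livers was sequenced. The deposited values are whole-number read counts per gene, not normalised. The submitters' processing notes name bcl2fastq 2.17, FastQC, Trimmomatic 0.40, HISAT2 2.2.1, featureCounts 2.0.3, DESeq2 1.42.0 and GRCm38, without strand or multi-mapping settings. Low rows were left out before deposit, since each of the 15448 rows reached 10 counts in at least 1 library. Symbols came from GENCODE M21 (15438 matched). From the counts, edgeR 4.0.16 (R 4.3.3) fitted all 22 libraries after filterByExpr (minimum count of 10, which removed 663 genes) and TMM scaling, and glmQLFTest gave p-values adjusted over 14785 genes. RPKM used the summed exon length. Ratios were compared with scipy 1.17.1. The fit was tested on simulated data. No library pair of a group agreed within sampling noise (lowest chi-square per degree of freedom 11).

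The members, lists and tests were chosen with earlier results of these data known. Named genes are the 8 members, the 10 genes of at least 1 CPM most like them, a set list of interferon-gamma, RFX and class II genes with Ptprc, and up to 4 called genes by p of each other list, of which some are given here by count only. Brd2 and Dexi were added for their overlap, and Irgm1 was named after its value was seen. Replicate numbers were taken from the titles, which do not say that they pair mice. The result of 1 gene of the interferon-gamma signalling list is not reported here.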

Additional observations from a re-analysis of the deposited data

Results flagged for a closer look

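Of 48 sets of values looked at (the CPM of the 8 genes and the 8 count ratios, in each group), 1 held a library that stood apart from the rest of its group. C26-TDCA replicate 8 had 0.145 H2-DMa counts per Cd74 count, and its gap to the next library made up 0.534 of the range of the C26-TDCA group. By chance about 1 in 20 such sets would be picked out. Without that library the log2 ratio was 1.10 higher in C26-TDCA than in CT, against 1.23 with it.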

How the results depend on the processing

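The counts of members called kept within 1 of those reported with DESeq2 or its size factors, without the filter, with upper quartiles for scaling, with the 2 groups alone, with a replicate block, with a length and GC trend removed, with voom quality weights, and with each library left out. Lower calls ranged from 4 to 5 in both comparisons with CT, H2-DMb1 being the call lost, and 0 were called between C26-TDCA and C26 throughout. With the replicate block H2-DMb1 was at -1.05 in C26 against CT (adjusted p = 0.0602, edgeR). Among the class II factors the block also ended the calls of Rfxap (-0.22, adjusted p = 0.118), Nfyc (-0.13, adjusted p = 0.144) and Rfxank (0.35, adjusted p = 0.101) in C26, and of Rfx5 (-0.33, adjusted p = 0.0617) and Rfxank (0.31, adjusted p = 0.0584) in C26-TDCA, and elsewhere those of Apob between C26-TDCA and C26 (0.38, adjusted p = 0.0916) and Ptpn6 in C26-TDCA against CT (0.25, adjusted p = 0.0605), while H2-Ob in C26 against CT was called (-1.11, adjusted p = 0.0189). Same-numbered libraries deviated together in 0 of 6 pairs for C26 and CT, 1 of 6 for C26-TDCA and CT and 5 of 8 for C26-TDCA and C26 (correlation over 0.1). In 0 of 6, 3 of 6 and 2 of 8 pairs the same-numbered library was also the most alike of its group. No chance level was computed, so whether the numbers pair mice was not settled. All genes called in C26-TDCA against C26, 291 as reported, came to 554 with DESeq2, 468 with voom, 45 with the 2 groups alone, 21 with the block (45 without it on the same libraries) and 17 with the trend removed (9 higher and 8 lower, against 256 and 35). Leaving out a library gave 59 to 594, over 1.5 times fewer than 291 without C26 replicate 5, 6 or 8 or C26-TDCA replicate 2, 3, 4, 5 or 6 (59 to 172), and over 1.5 times more without C26 replicate 1 (594) or C26-TDCA replicate 8 (498).

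Uncalled values near 0 changed sign. Ciita was at 0.01 with voom and -0.26 to 0.04 with a library left out in C26 against CT, and -0.27 to 0.02 in C26-TDCA against C26. Irf1 was at -0.06 in C26 and -0.01 in C26-TDCA against CT with the trend removed, and ran from -0.03 to 0.14 and from -0.03 to 0.13 with a library left out. Between C26-TDCA and C26 the log2 ratio to Cd74 ran from -0.28 to 0.03 for Ciita, -0.03 to 0.22 for H2-DMa and -0.05 to 0.04 for H2-Eb1. Brd2, which overlaps H2-DMa, was at -0.08 in C26 against CT with the trend removed (adjusted p = 0.389), against 0.19 as fitted (adjusted p = 0.0207). The causes were not tested. Scaling moved the median of all genes by at most 0.07. Counts under 100 limit H2-DMa, H2-DMb1, Ciita and H2-Ob. Leaving out libraries for the ratios and the fit without the block on the same libraries were chosen after the data were seen.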
